A study of Phalaenopsis aphrodite with 54 samples.

Results

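Column-specific contigs are described here across the development of the *Phalaenopsis* flower. A contig is an assembled transcript sequence, and the array carried probes for 43662 of them. A contig was counted as column-specific when its mean log2 value in the column was above -5 and its specificity measure (SPM) there was over 0.9. The SPM is the linear signal in the column divided by the root of the summed squares of the linear signals in 8 tissues, which were column, lip, petal, sepal, pollinia and pedicel of the hybrid V3 and leaf and root of *P. aphrodite*. It is 1 when a contig is measured in the column alone. Of the 43662 contigs 155 passed and were not named in the paper, and these are the members. The levels in the 8 tissues chose the members and are given as a description with no test. Buds, whole flowers, pollinated flowers, inflorescences and stalks were not used to choose them.

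The column is the central organ of an orchid flower, in which male and female parts are fused. It carries the pollinia, which are coherent packets of pollen, at its tip and the stigma below them, and pollen tubes grow through it to the ovary after pollination. In orchids pollination is also known to start the wilting of petals, sepals and lip and the growth of the ovary. The files do not pair the contigs with gene names or sequences, so the members are given by their identifiers and no role is given to them.

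RNA of 54 samples was hybridised to 1 array each. Amplified RNA was used on 41 arrays of 20 conditions. Separated organs of flowers, small buds, large buds, open flowers and flowers 1, 3, 8 and 15 d after pollination came from V3, a commercial tetraploid hybrid. Leaf, root, stalk, young inflorescence, inflorescence, bud and open flower came from *P. aphrodite* (Pa in the figures), a wild species from whose transcripts the probes were made. Each of these conditions had 2 arrays, except *P. aphrodite* leaf with 3. RNA labelled without amplification was used on 13 arrays, with flowers, leaves and roots of both genotypes. The labels name no mutant, transgene or chemical treatment.

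Values are log2 signals relative to the 75th percentile of the array, so 0 is a bright contig, and the lowest signal that could be recorded lay between -8.66 and -6.86 on amplified arrays. Between 71.2% and 80.7% of the spots of an amplified array were well above background, and no spot was saturated. In 14 of the 20 amplified conditions the arrays agreed as closely as repeated spots within an array, and they were then counted as 1 sample. Column, V3 buds, open flowers, pollinated flowers and *P. aphrodite* flowers were among these, whereas *P. aphrodite* buds and inflorescences counted as 2 samples each. The spread of a condition with 1 sample was taken from the other conditions. The paper states that its floral organ arrays came from 2 collections of samples and that leaf, root, bud and open flower arrays were repeated. The column arrays were still counted as 1 sample because they agreed closely. Neither the paper nor the labels say that arrays came from separate plants. P-values thus measure only the spread between these samples, which may be technical.

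The column label was set beside 5 contigs that the paper places in column and pedicel, among them 3 AGAMOUS-like genes (PaAG-1 to PaAG-3) whose relatives in Arabidopsis specify stamens and carpels. The paper placed them by arrays of this same series and cites quantitative PCR there for PaAG-3 alone. The 5 are thus no independent check of the label. All 5 passed the rule and were left out of the members. Their summed linear level was 59.6 in the column, 5.58 in the pedicel and at most 0.198 in lip, petal, sepal and pollinia. Of 6 contigs that the paper places in pollinia, 2 were above background on neither column array, and the summed level of the 6 was 0.583 in the column against 188.0 in pollinia.

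The members ranged widely in brightness. Their column means ran from -4.94 to 4.67 (median 0.38), and the median SPM was 0.96. All 155 were well above background on both column arrays, which differed by a median of 0.063 per member. The column exceeded the next tissue by 2.23 on the log2 scale at the median and by 1.12 at the least. That next tissue was the lip for 46 members, the pedicel for 41, the pollinia for 36, the root for 11, the leaf for 8, the petal for 7 and the sepal for 6. Most members were therefore also measured in other organs, and 45 were well above background on all 15 other arrays of the 8 tissues. PATC153741 and PATC024986 were on none of the 15.

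The brightest members in the column were PATC182797, PATC154343 and PATC121442. PATC182797 gave 4.65 and 4.68 on the column arrays and 1.27 and 1.28 in the pedicel. PATC154343 gave 4.73 and 4.35 in the column and was undetected, which here means not well above background, in lip, petal, sepal and pedicel, with -5.15 and -5.09 in pollinia. PATC121442 gave 4.28 and 4.37 in the column and 0.09 and 0.12 in the pedicel. The highest SPM values were those of PATC154343 and PATC153741, and PATC204470 was the brightest of 4 members that shared an SPM of 0.9998. PATC153741 gave 2.09 and 2.14 in the column and PATC204470 1.51 and 1.60. These 3 changed strongly between the stages described below.

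At the edge of the rule, PATC064719 with an SPM of 0.9002 and PATC169651 with 0.9003 were just inside. PATC133382 and PATC206504, both with 0.8975, were just outside. The members with the lowest column means were PATC038289 at -4.94 and PATC056111 at -4.80, and 0 contigs past the SPM limit had a column mean of -5 or less. A second probe was present for 59 members, and it passed the rule by itself in 51 of them.

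**Figure D1:**
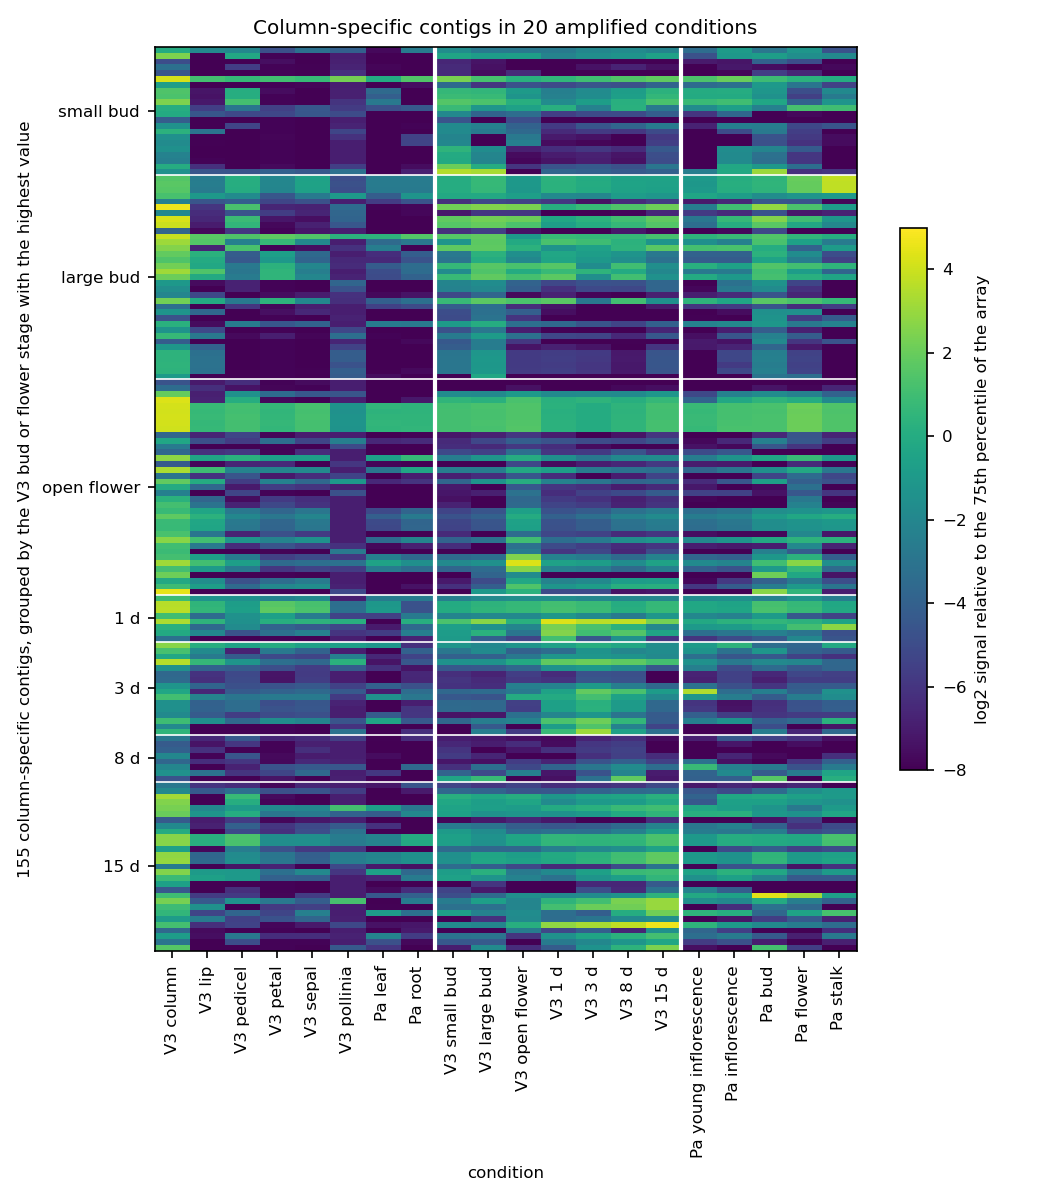
Mean log2 signal, relative to the 75th percentile of the array, of the 155 column-specific contigs (rows) in the 20 amplified conditions (the 8 tissues of the rule at the left, V3 buds and flowers in the middle, other *P. aphrodite* samples at the right). Rows are grouped by the V3 bud or flower stage with the highest value. Among the 154 contigs well above background on an array of these stages, it was the open flower for 36, the large bud for 35 and 15 d after pollination for 29. PATC064719, with a highest value of -8.20, is also drawn in the open flower group. Contigs that are bright in the column are thus bright at different stages.

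Many members had nearly the same profile. For 56 pairs, involving 52 of the 155 members, the correlation of the 20 condition means was over 0.99, a description over conditions that share arrays and scaling. PATC138930, PATC150558 and PATC157436 differed from each other by at most 0.134 in any condition, and PATC124181 and PATC140136 by at most 0.117. PATC092607, PATC146452 and PATC146462 had correlations of 0.9913 to 0.9949. Some members also followed the AGAMOUS-like genes that were left out, PATC182797 with a correlation of 0.9986 to PaAG-3 and PATC121442 with 0.9974 to PaAG-2. Whether such contigs are parts or near copies of 1 transcript was not tested, and a count of members can then count 1 transcript more than once.

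In whole V3 buds and flowers the members were dimmer than in the column. The median member lay 2.96 below its column value in open flowers and in large buds and 3.13 below it in small buds. Fewer column cells and less RNA per cell cannot be told apart in such samples, here and in each change described below. Over the 7 V3 stages from small bud to 15 d after pollination, 125 of the 155 members ranged over more than 4-fold, 31 over more than 64-fold and 4 over less than 2-fold. The range had a median of 3.67 on the log2 scale over the 154 members that were well above background on an array of these stages. Over the 37325 contigs of that kind the median was 1.42, and over the contigs that the same rule gives for lip and pedicel it was 4.44 and 4.33.

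The members did not move as a block. Of the 154 well above background on an array of these stages, the highest value fell in small buds for 22 (14.3%), in large buds for 35 (22.7%) and in open flowers for 36 (23.4%). It fell at 1, 3, 8 and 15 d after pollination for 8, 16, 8 and 29 (5.19%, 10.4%, 5.19% and 18.8%). Over the 37325 contigs of that kind the shares in the same order were 21.7%, 12.3%, 21.3%, 13.2%, 11.1%, 8.02% and 12.3%. Peaks at different stages were thus common to all contigs. In the lip list, 72 of 103 contigs were highest in open flowers. In the pedicel list, 87 of 197 were highest in small buds and 70 at 15 d. Relative to the open flower, the median of the column list stayed between -0.365 and 0.015 at the other 6 stages. That of all contigs lay between -0.121 and -0.025, that of the lip list between -3.10 and -1.56 and that of the pedicel list between 0.34 and 2.91. Differences between the 3 lists were not tested.

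**Figure D2:**
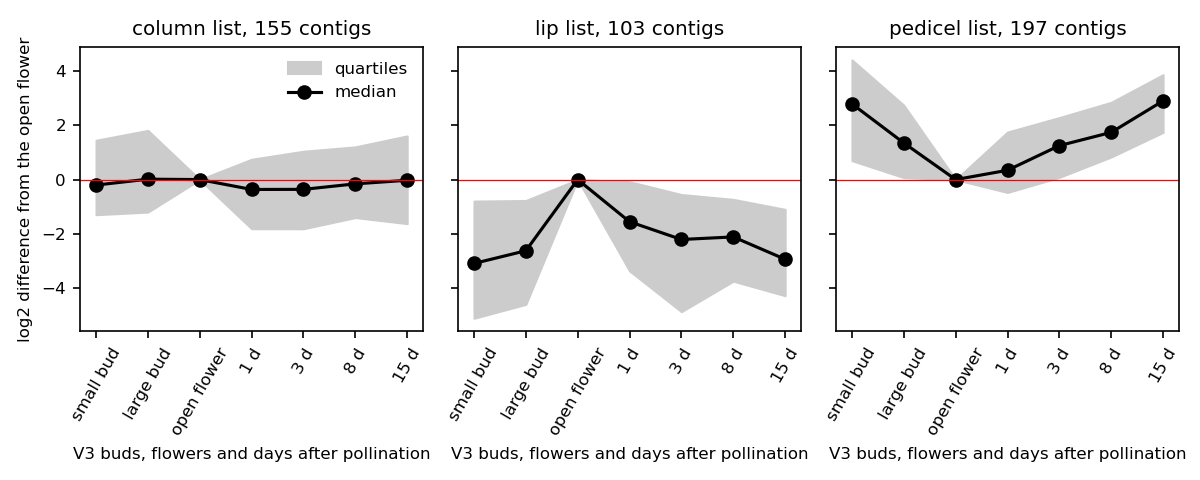
Log2 difference from the V3 open flower (vertical axis) at each V3 stage (horizontal axis) for the contigs specific to column, lip and pedicel by the same rule, with the median as points and the quartiles as a grey band. The median of the column list stays near 0 at every stage, whereas the lip list lies below 0 and the pedicel list above 0 away from the open flower. The median of all contigs, not drawn, lay between -0.121 and -0.025 at the other stages.

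Large and small buds of V3 were compared to ask which members change as the bud grows. A contig was called when the adjusted p was under 0.05 and the difference over 4-fold. Of 150 members tested, 16 were higher in large buds and 7 lower, against 1.51% and 2.42% of all 31965 contigs tested. The 155 had a median difference of 0.12 and all contigs one of 0.03. The 4 arrays lay on 1 slide.

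PATC188769 rose most. It gave -8.26 and -8.27 in small buds, where neither array was above background, and -0.16 and -0.21 in large buds, so it was at least 270-fold higher there (SE 0.29, adjusted p = 7.23e-07; SE on the log2 scale here and below). PATC154343 went from -8.26 and -8.27 to -1.05 and -1.05, at least 148-fold higher (SE 0.18, adjusted p = 1.78e-07). PATC105076 appeared in large buds too, with -2.39 and -2.46, and was at least 57.3-fold higher (SE 0.24, adjusted p = 1.41e-06). The small bud arrays did not detect any of the 3.

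PATC002540 and PATC116847, which form a pair of like profile, fell most. PATC002540 had a mean of -1.99 in small buds and gave -8.22 and -8.24 in large buds, at least 75.8-fold lower (SE 0.26, adjusted p = 1.55e-06), and PATC116847 was at least 69.2-fold lower (SE 0.18, adjusted p = 3.22e-07). PATC187964, above background on 1 of the 2 large bud arrays, was 11.3-fold lower (SE 0.19, adjusted p = 7.07e-06). Neither of the first pair was above background in large buds. The brightest member of small and of large buds was PATC199803, at 3.52 and 3.51 and at 3.28 and 3.27, above its column values of -1.41 and -1.45.

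From the large bud to the open flower, members changed in both directions. Of 153 tested, 31 were higher in open flowers and 35 lower, against 4.85% and 14.2% of all 31863 contigs tested. The median difference of the 155 was -0.015 and that of all contigs 0.03. Open flowers and buds lay on different slides, so opening and slide cannot be told apart.

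PATC092607, PATC002540 and PATC146452 rose most. PATC092607 gave -3.40 and -3.47 in large buds and 2.63 and 2.62 in open flowers, 66.6-fold higher (SE 0.23, adjusted p = 1.12e-07). PATC146452 of the same profile was 57-fold higher (SE 0.18, adjusted p = 4.44e-08). PATC146462, the brightest member in open flowers, gave -1.48 and -1.48 in large buds and 4.29 and 4.31 in open flowers, above its column values of 3.11 and 3.17. PATC002540, which large buds had not shown, was back at -2.32 and -2.36, at least 59.4-fold higher (SE 0.26, adjusted p = 2.79e-07).

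The largest fall at this step was that of PATC199803. It dropped from 3.28 and 3.27 in large buds to -8.11 and -7.99 in open flowers, which was 2560-fold lower (SE 0.30, adjusted p = 2.05e-08), and 1 of the 2 open flower arrays was above background. PATC152637 gave 0.75 and 0.80 in large buds and was undetected in open flowers, at least 474-fold lower (SE 0.32, adjusted p = 7.48e-08). PATC188769 was at least 226-fold lower (SE 0.29, adjusted p = 9.79e-08). Among the amplified V3 stages PATC188769 was well above background in large buds and on no array of small buds, open flowers or pollinated flowers. Here and after pollination, undetected refers to amplified arrays. On unamplified V3 flower arrays PATC152637 and PATC199803 were above background on both, with means of -3.70 and -3.04, and PATC188769 on 1 of 2.

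Flowers after pollination were compared with open flowers at 4 times, which share the open flower arrays. At 1 d, 18 of 148 tested members were higher and 33 lower, against 7.13% and 4.83% of all contigs tested. At 3 d, 25 of 152 were higher and 38 lower, against 10.1% and 4.1%. At 8 d, 22 of 152 were higher and 30 lower, against 12.4% and 3.36%, and quantile normalization gave 21 and 46. At 15 d, 27 of 152 were higher and 29 lower, against 14.8% and 4.23%, and quantile normalization gave 19 and 37. The median difference of the 155 at the 4 times was -0.365, -0.36, -0.16 and -0.03, against -0.12, -0.05, -0.105 and -0.03 for all contigs. Pollinated and open flowers lay on different slides, so pollination and slide cannot be told apart. The arrays at 1 d also shared no slide with those at 3, 8 and 15 d. Between 1 d and the later days, day and slide thus cannot be told apart either.

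Of 148 members tested on all 4 days, 15 (10.1%) were lower on every day, against 2.03% of all 30551 contigs tested so, and among them were PATC154343 and PATC153741. The 4 comparisons share the open flower arrays, so their calls are not independent. PATC154343 stood at 0.31 and 0.32 in open flowers, at -5.13 and -5.04 at 1 d, at -5.03 and -5.09 at 3 d, at -7.35 and -7.38 at 8 d and at -7.12 and -7.29 at 15 d. It was 42.4-fold lower at 1 d (SE 0.18, adjusted p = 1.5e-07) and 206-fold lower at 8 d (SE 0.18, adjusted p = 1.86e-08). PATC153741 gave -1.73 and -1.73 in open flowers and was undetected on all arrays of pollinated flowers, at least 83.3-fold lower at 1 d (SE 0.23, adjusted p = 2.2e-07). Both had also been undetected in small buds and measured in large buds, so their values rose with the bud, peaked in open flowers and were low or undetected after pollination.

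PATC092607 fell from 2.63 and 2.62 in open flowers to -3.56 and -3.47 at 8 d, 70.6-fold lower (SE 0.23, adjusted p = 1.66e-07), and PATC146452 and PATC146462 were lower on every day as well. PATC002540 was 37.9-fold lower at 1 d (SE 0.26, adjusted p = 1.17e-06) and gave -5.61 and -5.61 at 15 d. The other members lower on every day were PATC012759, PATC056111, PATC116847, PATC127121, PATC134808, PATC187964, PATC192576, PATC220393 and PATC226843. Their courses in the bud differed.

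Of the same 148 members, 11 (7.43%) were higher on every day, against 3.81% of all contigs. PATC036637 and PATC105076 peaked at 3 d. PATC036637 was undetected in open flowers and gave -0.78 and -0.77 at 1 d, 1.36 and 1.43 at 3 d, -2.38 and -2.24 at 8 d and -5.32 and -5.34 at 15 d, at least 679-fold higher at 3 d (SE 0.22, adjusted p = 2.08e-08). PATC105076 went from -5.77 and -5.83 to 3.09 and 3.14 at 3 d, 484-fold higher (SE 0.24, adjusted p = 3.69e-08). At 3 d both were above their column values of -1.92 and -1.87 and of 0.49 and 0.53.

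PATC204470, PATC064663, PATC055100 and PATC125905 were highest at 15 d. PATC204470 gave -6.33 and -6.35 in open flowers, -4.16 and -4.24 at 1 d, -1.32 and -1.38 at 3 d, 0.41 and 0.43 at 8 d and 2.48 and 2.43 at 15 d, 444-fold higher at the end (SE 0.48, adjusted p = 9.3e-07). PATC064663, undetected in open flowers, reached -0.39 and -0.23, at least 224-fold higher (SE 0.34, adjusted p = 2.55e-07). PATC055100 went from -5.94 and -6.11 to 1.09 and 1.11, 140-fold higher (SE 0.24, adjusted p = 6.43e-08). PATC125905, the brightest member at 15 d, went from 0.18 and 0.16 to 4.66 and 4.65, above its column values of 1.11 and 1.08.

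PATC124524 was the brightest member at 1, 3 and 8 d. It gave 0.28 and 0.26 in open flowers, 4.29 and 4.30 at 1 d, 3.67 and 3.62 at 3 d, 3.77 and 3.75 at 8 d and 2.28 and 2.27 at 15 d, so every array after pollination lay above the open flower. The other members higher on every day were PATC038731, PATC056649, PATC115179 and PATC199803. PATC199803 recovered only in part, to -3.73 and -3.81 at 1 d.

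PATC160059 peaked at 1 d and PATC152637 at 8 d. PATC160059 gave -5.33 and -5.34 in open flowers and 1.03 and 1.09 at 1 d, 84.2-fold higher (SE 0.25, adjusted p = 3.21e-07), then -4.49 and -4.43 at 3 d and -1.47 and -1.39 at 8 d. PATC152637 was undetected in open flowers and gave -3.10 and -3.17 at 3 d and 1.84 and 1.79 at 8 d, at least 978-fold higher (SE 0.32, adjusted p = 7.02e-08), then -7.08 and -7.25 at 15 d. On their peak days both were brighter than in the column, by 4.28 and 6.49 on the log2 scale.

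**Figure D3:**
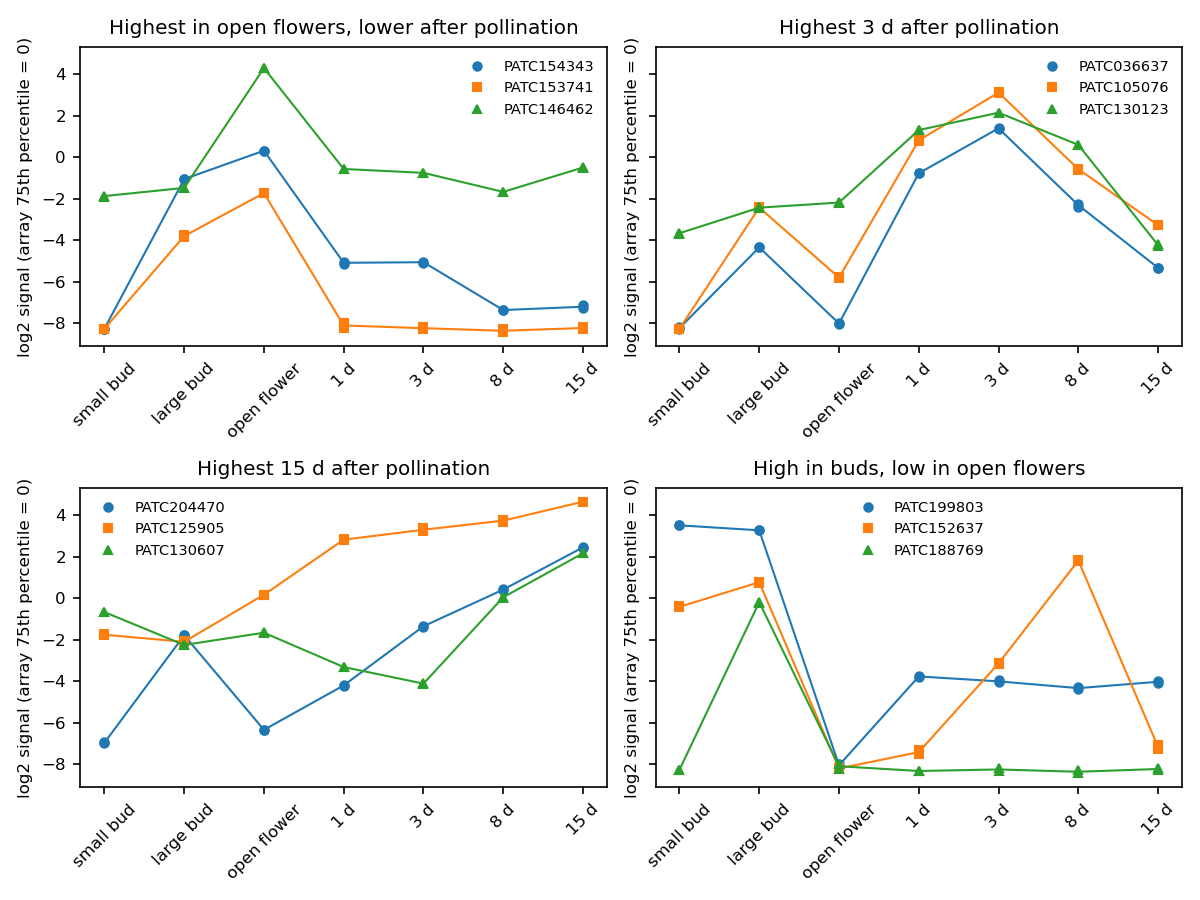
Log2 signal, relative to the 75th percentile of the array, of 12 members on each array (points, 2 per stage, many overlapping) at 7 V3 stages from the small bud to 15 d after pollination, with lines through the stage means, in 4 panels by course. PATC154343 and PATC153741 are highest in open flowers and fall by 1 d, PATC036637 and PATC105076 peak at 3 d, PATC204470 climbs to 2.48 and 2.43 at 15 d, and PATC199803 drops between the large bud and the open flower.

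Contigs of other organs moved in the same samples. All 6 pollinia contigs were above their open flower value at 15 d, by 0.75 to 9.01 on the log2 scale, and their summed linear level was 0.713 in open flowers and 1.24, 2.69, 3.85 and 6.43 at 1, 3, 8 and 15 d. It was 2.72 in small buds and 7.11 in large buds. The summed level of 2 pedicel contigs went from 0.386 in open flowers to 1.31 at 15 d, and the level of 1 lip contig from 6.01 to 0.377. The 5 column and pedicel contigs summed to 9.99 in open flowers, were at 3.62 at 1 d and stood at 5.06, 6.99 and 12.9 at 3, 8 and 15 d, with 10.2 in small and 12.5 in large buds. Among the members that rose, PATC105076 gave -3.04 and -3.05 in pollinia, PATC204470 -4.43 and -4.29 and PATC036637 -6.04 and -6.13. The part of pollen and of other organs in the members' changes was not tested.

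Flowers at 15 d were also compared with flowers at 3 d, since both had an array on 1 slide. Of 143 members tested, 14 were higher at 15 d and 20 lower, against 6.25% and 3.37% of all contigs tested. The median difference of the 155 was 0.72, against 0.02 for all contigs. With a limit of 2-fold 60 members were higher and 24 lower, so the balance of the calls depended on the limit. No share over all contigs stands beside the 2-fold counts, and they are not read as a result about the members. The 34 calls kept their sign between the 2 arrays of the shared slide. Such arrays also entered the calls, here and in the like statements below, so a kept sign is no separate test.

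PATC130607 rose most, from -4.12 and -4.10 at 3 d to 2.18 and 2.16 at 15 d, 78-fold higher (SE 0.28, adjusted p = 1.04e-06). It had been at -1.68 and -1.65 in open flowers, so it was lower at 3 d than before pollination. PATC204470 was 14-fold higher (SE 0.48, adjusted p = 0.000274) and PATC205998 9.65-fold higher (SE 0.27, adjusted p = 2.4e-05). PATC036637 and PATC105076 were 106-fold and 83.8-fold lower (adjusted p = 2.86e-07 and 4.84e-07). PATC130123, which gave 2.14 and 2.16 at 3 d and -4.27 and -4.20 at 15 d, was 83.5-fold lower (SE 0.12, adjusted p = 8.23e-08).

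In *P. aphrodite*, buds were compared with inflorescences to ask which members appear with the bud there. Of 150 tested members 41 were higher in buds and 9 lower, against 5.45% and 8.74% of all 33115 contigs tested. The 155 had a median difference of 0.85, and all contigs one of 0.05. Rises were not particular to the members. Among contigs that the same rule gives for other organs, 39.4% of those tested for lip and 54.5% for petal were higher in buds. For pedicel, pollinia and sepal the shares were 11.7%, 14.9% and 0%. The 50 calls kept their sign between the arrays of the slide that held both groups. The summed level of the pollinia contigs was 1.37 in inflorescences and 6.88 in buds, and that of the 5 column and pedicel contigs 4.01 and 12.4. Their part in the members' values was not tested.

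PATC154343, PATC153741 and PATC204470 rose most. PATC154343 gave -8.29 and -8.06 in inflorescences, the latter at the lowest signal that array could record, and 2.64 and 2.78 in buds, so the 1890-fold difference (SE 0.13, adjusted p = 6.65e-10) may be too small. PATC153741 was undetected in inflorescences and gave 1.96 and 2.33 in buds, at least 1320-fold higher (SE 0.16, adjusted p = 1.63e-09). PATC204470, above background on 1 of the 2 inflorescence arrays, gave 1.09 and 1.27 in buds, 677-fold higher by the recorded values (SE 0.34, adjusted p = 6.22e-08). All 3 were also brighter in large than in small buds of V3.

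PATC000227, PATC020291 and PATC130607 fell most from inflorescence to bud. PATC000227 gave -3.55 and -3.81 in inflorescences and -8.23 and -7.91 in buds, where 1 of the 2 arrays was above background, 21-fold lower by the recorded values (SE 0.23, adjusted p = 5.19e-07). PATC020291 was at least 16.5-fold lower (SE 0.12, adjusted p = 1.96e-08) and PATC130607 13.8-fold lower (SE 0.20, adjusted p = 5.67e-07). In young inflorescences they gave -5.84 and -6.16, -2.30 and -2.22 and 0.32 and 0.56, so PATC020291 and PATC130607 were brighter there than in inflorescences, and PATC000227 was dimmer.

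From bud to open flower in *P. aphrodite* most calls were falls. Of 147 tested members 9 were higher in flowers and 42 lower, against 4.21% and 10.5% of all 31817 contigs tested, and quantile normalization gave 19 and 32. For the 155 the median difference was -0.55, and for all contigs -0.16. For the contigs that the same rule gives for petal, pedicel and pollinia it was -3.74, -1.05 and -0.815. For those of lip and sepal it was 0.725 and 1.49. The 51 calls kept their sign between the arrays of the slide that held both groups. The summed level of the pollinia contigs was 6.88 in buds and 0.845 in flowers, and that of the column and pedicel contigs 12.4 and 4.53. Their part in the falls was not tested.

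PATC152637 and PATC199803 fell most, as they had in V3. PATC152637 gave 1.63 and 1.66 in buds and was undetected in amplified flowers, at least 1010-fold lower (SE 0.27, adjusted p = 2.58e-08). On unamplified *P. aphrodite* flower arrays it was above background on both, with a mean of -3.51. PATC199803 dropped from 3.03 and 3.10 to -6.16 and -6.18, 605-fold lower (SE 0.26, adjusted p = 2.8e-08). PATC204470 dropped from 1.09 and 1.27 to -5.67 and -5.58, 112-fold lower (SE 0.42, adjusted p = 1.83e-06). In V3 it went from -1.79 and -1.77 in large buds to -6.33 and -6.35 in open flowers, so it was low in open flowers of both genotypes.

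PATC165907, PATC038602 and PATC220393, which have like profiles, rose most. PATC165907 gave -8.23 and -8.03 in buds and -2.21 and -2.27 in flowers, 59.4-fold higher by the recorded values (SE 0.16, adjusted p = 2.3e-08). PATC038602 was 54.9-fold higher (SE 0.34, adjusted p = 1.37e-06) and PATC220393 40.8-fold higher (SE 0.29, adjusted p = 9.41e-07). PATC165907 and PATC220393 were above background on 1 of the 2 bud arrays, so their folds may be too small. In V3 all 3 were undetected in large buds and measured in open flowers.

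The bud and flower comparisons of the 2 genotypes share no arrays. Of the 35 members that fell in V3, 24 (68.6%) also fell in *P. aphrodite*, which was 57.1% of the 42 that fell there. Over all contigs these shares were 51.6% and 69.9%. Of the 31 that rose in V3, 6 (19.4%) rose in *P. aphrodite*, which was 66.7% of the 9 there, and over all contigs the shares were 30.8% and 35.5%. In 1 member a rise in V3 met a fall in *P. aphrodite*. Of the 34 V3 falls tested in *P. aphrodite*, 33 had a difference below 0 there, and of the 28 V3 rises 23 had one above 0. Over all contigs 90.8% of V3 falls and 79.5% of V3 rises had the same sign in *P. aphrodite*, and 55.1% of all contigs tested there lay below 0, so the same direction was common beyond the members too. The labels do not give the size of *P. aphrodite* buds, so the 2 steps may cover different stages.

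**Figure D4:**
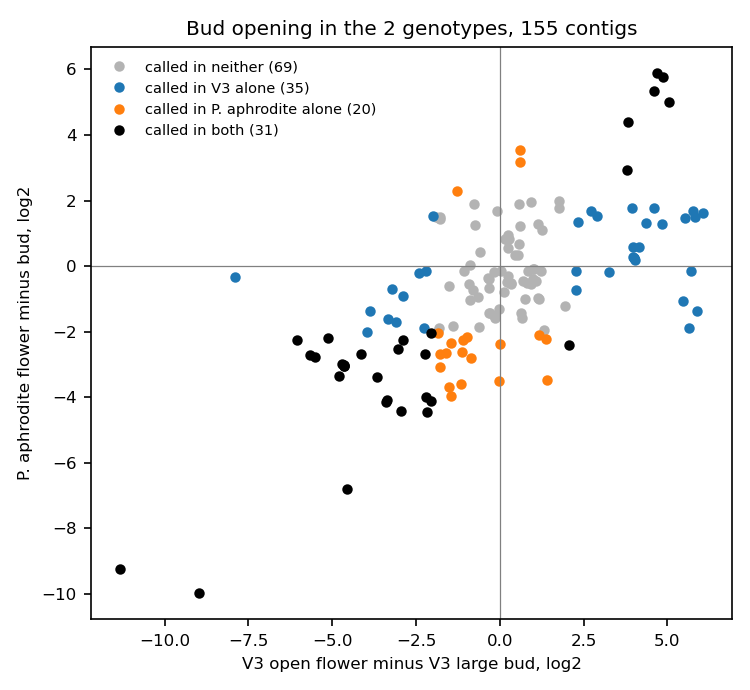
Log2 difference between open flower and bud of the 155 members in V3 (horizontal axis, open flower minus large bud) and in *P. aphrodite* (vertical axis, flower minus bud), with colours for the calls at an adjusted p under 0.05 and over 4-fold. Of the members 31 were called in both, 35 in V3 alone and 20 in *P. aphrodite* alone, and PATC199803 and PATC152637 lie at the lower left.

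Open flowers of the 2 genotypes were compared directly. On amplified arrays 27 of 148 tested members were higher in V3 and 12 lower, against 4.4% and 4.39% of all 31069 contigs tested. The median difference of the 155 was 0.18 and that of all contigs 0.13. The rule asked for a high value in a V3 organ and low ones in leaf and root of *P. aphrodite*. Contigs that read brighter in V3 may thus have been favoured, and these counts are a description. The groups lay on different slides. The probes were made from *P. aphrodite*, and a difference between the genotypes in sequence cannot be told apart from a difference in RNA.

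PATC126112 gave -2.51 and -2.52 in V3 and was undetected in *P. aphrodite* flowers, at least 56.3-fold higher in V3 (SE 0.43, adjusted p = 1.29e-05). PATC041930 was at least 34-fold higher in V3 (SE 0.40, adjusted p = 1.93e-05). PATC000227 gave -3.33 and -3.35 in V3 and -8.08 and -7.36 in *P. aphrodite*, 20.9-fold higher in V3 (SE 0.32, adjusted p = 1.25e-05). These 3 were also undetected, or nearly so, in *P. aphrodite* buds.

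PATC144887 was the reverse, with -1.50 and -1.66 in V3 and 3.19 and 3.21 in *P. aphrodite*, 27.3-fold lower in V3 (SE 0.33, adjusted p = 8.56e-06). PATC188769 was at least 26.4-fold lower in V3 (SE 0.29, adjusted p = 4.2e-06) and PATC160059 10.1-fold lower (SE 0.25, adjusted p = 1.48e-05). PATC144887 was brighter in *P. aphrodite* buds and flowers, the former at 4.14 and 4.71, than in the V3 column at 0.95 and 1.01.

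Unamplified flowers gave the same comparison on other arrays, with the same limit from the rule. There 12 of 137 tested members were higher in V3 and 7 lower, against 1.84% and 2.8% of all 33293 contigs tested. Of the 12 higher in V3, 11 were also called higher on amplified arrays, and all 7 lower ones were also called lower. Over all contigs this held for 70.8% of those higher and 61.4% of those lower in V3. The 19 calls kept their sign within the slide that held both genotypes. PATC144887 gave -2.01 and -1.45 in V3 and 2.38 and 2.57 in *P. aphrodite*, 18.4-fold lower in V3 (SE 0.42, adjusted p = 0.00241). PATC000227 gave -0.79 and -0.46 in V3 and was undetected in *P. aphrodite*, at least 14.6-fold higher (SE 0.39, adjusted p = 0.00246). For both contigs the 2 labellings thus gave the same direction.

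PATC127121 and PATC075134 were 11.1-fold and 9.41-fold higher in unamplified V3 flowers (adjusted p = 0.0162 and 0.00763). PATC138930 and PATC150558, which have nearly the same profile, were 10.4-fold and 8.15-fold lower (adjusted p = 0.00387 and 0.0186). On amplified arrays PATC138930 gave -1.07 and -1.09 in V3 and 1.96 and 1.93 in *P. aphrodite* flowers.

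Unamplified flowers were also compared with leaves and roots, to ask whether members are higher in flowers on arrays that the rule did not use. Leaf and root of V3 had no part in the rule, whereas amplified leaf and root of *P. aphrodite* did. The rule asked for a high value in a flower organ and low ones in those tissues. Higher values in flowers were therefore in part built in. In V3, 48 of 133 tested members were higher in flowers than leaves and 6 lower, against 3.31% and 4.92% of all 33201 contigs tested. Against roots 53 of 130 were higher and 4 lower, with 3.81% and 6.47% over all contigs. The median differences of the 155 were 1.02 and 1.17, against 0.16 and 0.41 over all contigs. Between the arrays of the slide that held both flowers and leaves, the 54 calls against leaves kept their sign, whereas flowers and roots shared no slide, so organ and slide cannot be told apart there.

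In *P. aphrodite*, 42 of 127 tested members were higher in flowers than leaves and 4 lower, against 5.21% and 5.69% of all contigs tested. Against roots 35 of 127 were higher and 1 lower, against 6.44% and 6.12%. The median differences of the 155 were 0.92 and 0.81, with 0.33 and 0.38 over all contigs. The 46 calls against leaves kept their sign within each of 2 shared slides, and flowers and roots again shared none. In both genotypes and against both organs 17 of 118 members (14.4%) were higher in flowers, against 0.902% of all 31143 contigs tested in the 4 comparisons, which share flower arrays within a genotype. As *P. aphrodite* leaf and root are tissues of the rule, this share is a description and no independent support. By the same rule, 65.3% of the lip list and 25.2% of the pedicel list were higher in *P. aphrodite* flowers than leaves. Against roots the shares of these lists were 58.9% and 23.8%. Among the 17 were PATC153741, PATC154343, PATC121442, PATC144887 and the alike contigs PATC092607, PATC146452 and PATC146462.

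PATC092607 gave 2.44 and 2.65 in V3 flowers and -4.23 and -3.90 in V3 leaves, 97.5-fold higher in flowers (SE 0.35, adjusted p = 9.71e-05). PATC146452 and PATC146462 were 68.6-fold and 66.1-fold above leaves (adjusted p = 0.000324 and 0.000271). Over V3 roots, PATC208256 was at least 57.2-fold higher (SE 0.29, adjusted p = 2.57e-05), PATC146462 55-fold higher (SE 0.37, adjusted p = 5.85e-05) and PATC037509 at least 54.5-fold higher (SE 0.32, adjusted p = 3.75e-05). PATC208256 and PATC037509 were undetected in V3 roots.

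In *P. aphrodite*, PATC144887 gave 2.38 and 2.57 in flowers, -5.29, -4.80 and -4.50 in leaves and -4.77 and -4.72 in roots, so flowers were 161-fold above leaves (SE 0.48, adjusted p = 0.000223) and 149-fold above roots (SE 0.48, adjusted p = 0.000255). PATC121442 and PATC148271 were 31.3-fold and 26.5-fold above leaves (adjusted p = 0.00102 and 0.000559). PATC146462 and PATC148271 were 26.5-fold and 24.4-fold above roots (adjusted p = 0.00118 and 0.000545). Of the 3 leaf arrays, 1 was above background for each of PATC144887, PATC121442 and PATC148271, as was 1 of the 2 root arrays for PATC148271, so these folds may be too small. All of these were also higher in V3 flowers than V3 leaves and roots.

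Some members were brighter in leaves or roots than in flowers when RNA was not amplified. In V3 this was called for 9 of 133 members (6.77%), against 9.16% of all contigs tested. PATC088845 gave -1.06 and -0.92 in V3 flowers, 2.13 and 2.58 in leaves and 1.19 and 2.24 in roots, 10.2-fold and 6.52-fold lower in flowers (adjusted p = 0.00357 and 0.00207). On amplified arrays the same contig gave -2.02 and -1.94 in the column and -7.58, -7.45 and -7.73 in *P. aphrodite* leaves. The order of column and leaf thus came from amplified arrays alone, since no column was labelled without amplification.

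PATC094559 and PATC130123 were 6.2-fold and 5.58-fold lower in V3 flowers than leaves (adjusted p = 0.00302 and 0.00506). PATC199803 gave -3.09 and -2.98 in V3 flowers and 1.63 and 1.17 in V3 roots, 21.6-fold lower in flowers (SE 0.31, adjusted p = 7.95e-05). PATC125153 was 6.63-fold lower in V3 flowers than roots (SE 0.34, adjusted p = 0.00101). In *P. aphrodite*, PATC199803 gave -2.74 and -2.82 in flowers and -2.96 and -3.06 in roots, where flowers lay just above roots.

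In *P. aphrodite*, PATC127121 gave -0.08 and -0.48 in flowers and 2.57, 2.82 and 2.60 in leaves, 7.67-fold lower in flowers (SE 0.69, adjusted p = 0.0284). PATC130123 and PATC088845 were 6.19-fold and 5.58-fold lower in flowers than leaves (adjusted p = 0.00768 and 0.0233), and PATC133133 was 5.01-fold lower than in roots (SE 0.45, adjusted p = 0.0113). For PATC130123, 1 of the 2 flower arrays was above background. For PATC127121 the difference of *P. aphrodite* flower from leaf was 2.44 with amplification and -2.94 without. The 2 labellings gave opposite signs for 10 members against leaves and 8 against roots, with 127 tested without amplification for each. The median difference of the 155 from leaves was 2.73 with amplification and 0.92 without, and from roots 2.19 and 0.81. The amplified leaf and root arrays had a part in the rule, which favours members that are dim there.

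**Figure D5:**
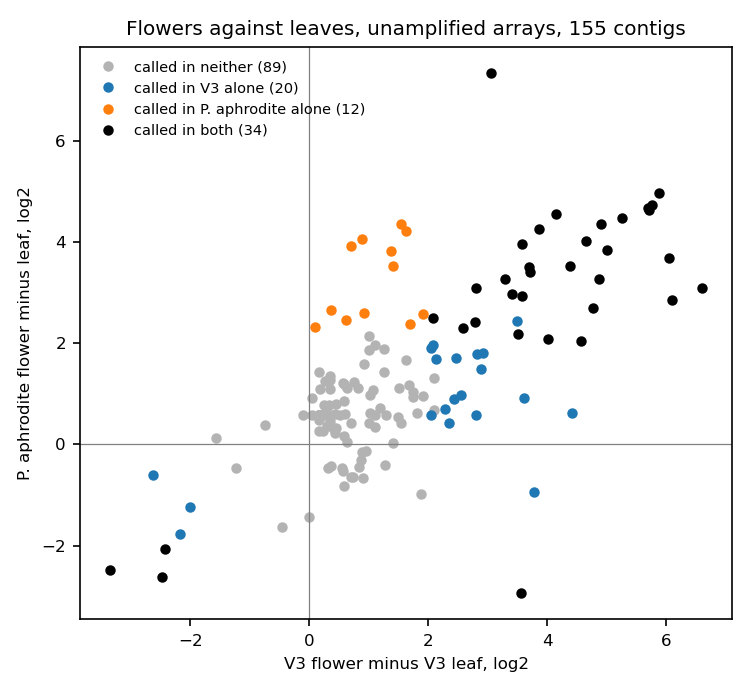
Log2 difference between flower and leaf of the 155 members on unamplified arrays of V3 (horizontal axis) and *P. aphrodite* (vertical axis), with colours for the calls at an adjusted p under 0.05 and over 4-fold. Of the members 34 were called in both genotypes, 20 in V3 alone and 12 in *P. aphrodite* alone, and PATC092607 at 6.61 lies farthest to the right.

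Among all 20 amplified conditions the column was the brightest for 105 of the 155 members. The brightest was V3 flowers at 3 d for 9, V3 flowers at 15 d for 9, stalks for 6, small buds, open V3 flowers and *P. aphrodite* buds for 5 each, young inflorescences for 4, flowers at 1 d for 3, large buds for 2, and *P. aphrodite* flowers and flowers at 8 d for 1 each. PATC152637, PATC199803 and PATC160059 exceeded the column by most, by 6.49 at 8 d, 4.95 in small buds and 4.28 at 1 d. Of 154 members tested in any comparison among V3 buds, open flowers and pollinated flowers, 41 (26.6%) were called in none, against 68.8% of all contigs tested so.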

How the data were processed

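The deposited files held spot intensities of 54 one-colour arrays, corrected for background by Feature Extraction 10.7.1.1. A deposited table held log2 values per probe. It equalled the log2 intensity with a floor of 20, less a constant within 0.00172 of the array's 75th percentile, to within 3.2e-06. The paper's methods name quantile normalization, which the table does not show, and the table's scale was kept. Column medians of the table ran from -3.14 to -2.14 for amplified arrays and from -1.87 to -1.72 for unamplified ones. No column belonged to another series.

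Outlier spots were left out, repeated spots averaged, and the brightest probe over the amplified arrays stood for its contig. Arrays of a condition were averaged into 1 sample where their median difference was no larger than that between repeated spots (ratio of 1 or less). Merged conditions reached 0.899 and 0.923 and the others began at 1.357 and 1.351 on amplified and unamplified arrays, which left 26 and 8 samples, fitted apart. Differences were fitted by limma 3.58.1 (R 4.3.3), with Benjamini-Hochberg adjustment over all contigs for which every array of either condition was well above background, and tested on simulated data. The fits had 6 and 2 residual degrees of freedom. For a contig undetected in a group, the fold is a lower bound, against the higher of its own signal and the dimmest detected signal. The number of arrays limits precision.

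The members, lists and tests were chosen with earlier results of these data known. Named were the 3 members with the highest column value and SPM (ties by column value), those beside each limit, up to 3 per direction with the largest called difference in each comparison, the brightest at each V3 stage and the 3 that exceed the column most. Members with a shared course on every day, in the pairs and in the lists of flower contigs were named after their values were seen. Alternatives covered scaling, filters, probes, replicates, slides, thresholds and single arrays. The normexp alternative used median spot signals, as mean signals are not analysed here.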

Additional observations from a re-analysis of the deposited data

Results flagged for a closer look

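The change from bud to open flower differed between V3 and *P. aphrodite* for 58 of 154 tested members (39 with a higher and 19 with a lower change in V3), by a test of the difference between the changes in the limma fit, against 11.9% of all contigs tested. This test and the next were chosen after the data were seen. The bud stages of the genotypes may not match. The difference was 7.53 (SE 0.27, adjusted p = 8.54e-07) for PATC012759, 7.25 (SE 0.35, adjusted p = 2.82e-06) for PATC002540 and 6.55 (SE 0.24, adjusted p = 1.05e-06) for PATC116847, all on the log2 scale. PATC012759 gave -8.22 and -8.24 in V3 large buds and -2.56 and -2.61 in V3 open flowers, and -2.27 and -2.44 in buds and -4.15 and -4.31 in flowers of *P. aphrodite*. In V3 large buds PATC012759, PATC002540 and PATC116847 lay at the lowest signal that could be recorded. PATC188769 was undetected in V3 open flowers. The differences given for these contigs may thus be too small in size. For PATC188769 the difference was -7.57 (SE 0.39, adjusted p = 3.77e-06), and *P. aphrodite* gave -3.18 and -2.71 in buds and -3.33 and -3.24 in flowers. For PATC068757 it was -3.81 (SE 1.13, adjusted p = 0.0246) and for PATC160059 -3.57 (SE 0.33, adjusted p = 7.56e-05).

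The change from leaf to flower on unamplified arrays differed between the genotypes for 5 of 138 tested members, against 1.12% of all contigs tested. The difference of V3 from *P. aphrodite* was 6.50 (SE 0.92, adjusted p = 0.0283) for PATC127121, 4.71 (SE 0.56, adjusted p = 0.0197) for PATC144225, 3.79 (SE 0.59, adjusted p = 0.0377) for PATC000227, 3.52 (SE 0.54, adjusted p = 0.0361) for PATC092607 and -4.29 (SE 0.64, adjusted p = 0.0328) for PATC144887. PATC127121 gave 3.09 and 3.29 in V3 flowers and -0.42 and -0.31 in V3 leaves, so flowers were above leaves, and the order was turned in *P. aphrodite*. PATC012759, PATC068757 and PATC144225 were chosen after their values were seen.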

How the results depend on the processing

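Of 88 differences of named members, none was reversed under any alternative, and 8 lost their call under at least 1, all on unamplified arrays. These were PATC127121, PATC130123 and PATC088845 in *P. aphrodite* flowers against leaves, PATC094559 and PATC130123 in V3 flowers against leaves, PATC133133 in *P. aphrodite* flowers against roots and PATC127121 and PATC138930 between the genotypes. No share over all contigs stands beside the counts of called members in this paragraph and the next, or beside those given earlier under quantile normalization. Such counts show how processing moves a count and are not read as a result about the members. The counts of called members moved by over 1.5 times mainly with the threshold. With a 2-fold limit they were 58 for large against small buds, 89, 99, 93 and 95 at 1, 3, 8 and 15 d after pollination, 84 for 15 d against 3 d, 99 for *P. aphrodite* buds against inflorescences and 99 for flowers against buds, 74 for V3 against *P. aphrodite* flowers, and 86 and 29 for unamplified V3 flowers against roots and against *P. aphrodite* flowers. With no fold limit they were 75, 109, 124, 114, 106, 108, 118, 118, 93, 88 and 29 in the same order, and 113 for open flowers against large buds. A raw signal of at least 500 left 33 for *P. aphrodite* buds against inflorescences and, unamplified, 21 and 24 for V3 flowers against leaves and roots, 8 and 7 for *P. aphrodite* flowers against leaves and roots and 6 for V3 against *P. aphrodite* flowers, as fewer contigs were then tested. Normexp gave 31, 36, 27, 23 and 6 for these unamplified comparisons, and the cause was not tested. An SPM over 0.8 gave 319 members, over 0.95 gave 87, and an SPM over all 20 amplified conditions 34. Normexp gave 126 members and left out 30 of the 155. Quantile normalization gave 158 and left out 7, and a column mean above -2 gave 120.

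Leaving out 1 array gave 22 to 24 called members for large against small buds, 64 to 67 for open flowers against large buds, 50 to 51, 61 to 63, 52 to 55 and 55 to 58 at 1, 3, 8 and 15 d, 34 to 37 for 15 d against 3 d, 51 to 54 and 50 to 53 for the *P. aphrodite* bud comparisons and 38 for V3 against *P. aphrodite* flowers. Unamplified, it gave 51 to 56 and 56 to 58 for V3 flowers against leaves and roots, 42 to 48 and 33 to 36 for *P. aphrodite* and 19 to 22 between the genotypes, and without a column array there were 153 or 169 members. No paired analysis was possible because the labels give no replicate numbers that groups share. Slide as a fixed term could be fitted for the 7 comparisons that share a slide. It gave 24 called members for large against small buds, 35 for 15 d against 3 d and 50 and 54 for the *P. aphrodite* bud comparisons, and, unamplified, 57 and 45 for V3 and *P. aphrodite* flowers against leaves and 27 between the genotypes, all within 1.5 times the reported counts, and slide as a random block moved no count of called members by over 1.5 times. On unamplified arrays the lowest signal that can be recorded lay between -5.71 and -4.48, which limits folds of dim contigs there.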

Other observations

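The 2 arrays of V3 flowers at 3 d after pollination gave -4.07 and -1.54 for PATC148271, a member chosen here after its values were seen, while its arrays at 1 d gave 1.66 and 1.64 and those at 8 d 1.07 and 1.09. Its value at 3 d therefore rests on arrays that disagree.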
